A study of Mus musculus with 12 samples.

Results

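The genes described here are 43 genes of DNA replication and S phase, chosen by name from textbook roles, with earlier results of these data known. They encode the proteins that license origins, open the helicase, copy DNA, load the sliding clamp, join Okazaki fragments, supply nucleotides, drive entry into S phase and pack new DNA into chromatin. All 43 symbols were among the 24411 in the deposited tables, and all 43 passed the filter on low values, which asked for 1 TPM or more in at least 2 libraries and kept 16133 symbols. TPM, transcripts scaled to a fixed total per library, is a level per transcript length, so levels of different genes can be set side by side. The RNA came from NR5A1(+) cells of fetal mouse gonads in 12 libraries of 5 groups.

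Cultured Dfo XY (n = 3), control XY (n = 3) and control XX (n = 2) gonads came from E10.8 embryos and were kept on membrane filters for 19.2 h. The gonads stayed attached to mesonephros, mesenchyme and aorta. Dfo is deferoxamine, a drug that binds iron, and its dose was 150 µM. The E11.5 XY and E11.5 XX groups (n = 2 each) are labelled WT gonads of that stage, and the labels do not settle how they were collected. All 12 libraries share the genotype Nr5a1-hCD271, a name that joins Nr5a1, a transcription factor gene of gonadal somatic cells, to a human cell-surface protein. The labels do not say whether replicates were separate embryos or litters. The p-values therefore measure only how far these samples lie apart, which may be technical.

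Before S phase, the origin recognition complex, CDC6 and CDT1 load the MCM2 to MCM7 ring onto DNA, and CDC45 and the GINS complex then turn that ring into the moving helicase. Primase and DNA polymerases copy both strands behind it, held by the clamp PCNA. Genes of this machinery are classic targets of E2F transcription factors, which cyclin E and the loss of RB binding set free, and in growing cells their transcripts peak from late G1 into S phase. Several of the enzymes need iron. RRM2, the small subunit of ribonucleotide reductase, holds a di-iron centre that makes the radical needed to turn ribonucleotides into deoxyribonucleotides. In yeast and human enzymes the polymerase subunits POLE and POLD1, the primase subunit PRIM2 and the nuclease-helicase DNA2 carry an iron-sulfur cluster.

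The promoters of 4 of these genes are shown here because the results turn on them. Orc1 was lower with Dfo, and Mcm6 had the highest level of the set and the largest difference between cultured XY and XX cells. Mcm2 was among the members farthest below control XX in Dfo XY, and Rrm2 encodes the iron enzyme. Each line is the 200 bases before the start of the gene, 5′ to 3′ on the gene's strand, from RefSeq on GRCm38.p6. The regions are chr4:108579254-108579453 (+) for Orc1, chr1:128359706-128359905 (-) for Mcm6, chr6:88898781-88898980 (-) for Mcm2 and chr12:24708054-24708253 (+) for Rrm2. Capitals mark the letters of an E2F-type motif (TTTCGCGC or TTTGGCGC) or of a CCAAT box (CCAAT), each searched on both strands.
Orc1: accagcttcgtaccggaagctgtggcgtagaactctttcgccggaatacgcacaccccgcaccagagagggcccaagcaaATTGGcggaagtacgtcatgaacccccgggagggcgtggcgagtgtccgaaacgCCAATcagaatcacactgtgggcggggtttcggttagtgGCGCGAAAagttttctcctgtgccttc
Mcm6: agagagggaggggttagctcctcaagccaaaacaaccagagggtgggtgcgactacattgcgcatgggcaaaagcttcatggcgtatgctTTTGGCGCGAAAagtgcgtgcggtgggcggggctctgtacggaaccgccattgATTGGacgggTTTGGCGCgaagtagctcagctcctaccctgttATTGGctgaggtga
Mcm2: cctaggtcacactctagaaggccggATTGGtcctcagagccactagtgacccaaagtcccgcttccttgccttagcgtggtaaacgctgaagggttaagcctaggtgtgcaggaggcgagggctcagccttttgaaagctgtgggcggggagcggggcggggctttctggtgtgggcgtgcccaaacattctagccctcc
Rrm2: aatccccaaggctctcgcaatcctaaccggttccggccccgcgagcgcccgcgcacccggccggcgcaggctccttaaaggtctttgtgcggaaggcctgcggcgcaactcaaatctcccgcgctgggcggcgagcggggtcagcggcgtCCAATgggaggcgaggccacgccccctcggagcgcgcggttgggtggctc

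Of the 43 genes, 35 had a promoter in the RefSeq table, with a window of 250 bases before to 50 bases after the start. The other 8 had none there and were not searched: Mcm4, Gins1, Gins2, Gins4, Prim2, Pole, Rfc2 and Ccne2. A gene with more than 1 window was counted once if any of its windows matched. The E2F-type motif was found for 9 of those 35 genes (25.7%), against 251 of 27025 symbols (0.929%). The 9 genes were Orc1, Cdt1, Mcm3, Mcm5, Mcm6, Mcm7, Pola1, Rfc3 and Lig1. In Mcm5 and in Mcm6 a match on one strand overlaps a match on the other. A CCAAT box, the letters bound by the factor NF-Y, was found for 21 of the 35 genes (60%), against 11096 of 27025 symbols (41.1%). A match describes the letters only.

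Some libraries stood apart from the others. Xist, the RNA of the inactive X of XX cells, was at 13.6 TPM in Dfo XY replicate 1, 24.6 TPM in Dfo XY replicate 2 and 0.28 TPM in Dfo XY replicate 3, against at most 0.18 TPM in control XY libraries, at most 0.90 TPM in E11.5 XY libraries and 124 to 175 TPM in XX libraries. Sry, of the Y chromosome, was at 4.23, 2.4 and 4.18 TPM in Dfo XY, 16.4 to 45.6 TPM in control XY, 42.4 and 53.4 TPM in E11.5 XY and listed at 0 in the XX libraries. Both Dfo XY libraries with Xist are labelled XY, and whether they hold RNA of XX cells was not tested. Replicate 3 held the highest level of its group for 42 of the 43 genes in Dfo XY and for 37 of 43 in control XY. Its median difference from the mean of replicates 1 and 2 was 0.48 on the log2 scale in Dfo XY (0.13 over all genes tested) and 0.31 in control XY (0.14 over all genes tested). Rpph1, the RNA of RNase P, took 19.5% to 23.6% of all TPM in Dfo XY, 15.3% to 20.3% in control XY and 6.96% to 12.2% in the other groups. Since TPM add up to a fixed total, this share lowers every other gene. The 8 markers of NR5A1(+) gonadal somatic cells were detected in all 12 libraries. Their summed level was 614 to 694 TPM in Dfo XY, 786 to 977 TPM in control XY, 1471 to 1527 TPM in control XX, 949 to 1105 TPM in E11.5 XY and 1167 to 1351 TPM in E11.5 XX. Summed over 10 erythroid genes, levels were 1391 to 3231 TPM in Dfo XY, 328 to 2546 TPM in control XY, 242 to 267 TPM in control XX, 2607 to 3384 TPM in E11.5 XY and 1333 to 1860 TPM in E11.5 XX. The erythroid gene Hbb-bs was listed at 0 in 10 of 12 libraries. In bulk RNA, fewer cells in S phase and less RNA per cell cannot be told apart, and the part of other cells in the results was not tested.

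Across the 12 libraries the genes spanned a wide range of levels. Mcm6, a subunit of the helicase ring, had the highest mean, with 133, 128 and 200 TPM in the Dfo XY libraries, 157, 155 and 201 TPM in control XY, 328 and 283 TPM in control XX, 245 and 232 TPM in E11.5 XY and 322 and 253 TPM in E11.5 XX. Gins3, a subunit of the GINS complex, had the lowest mean, with 7.10, 8.18 and 8.22 TPM in Dfo XY, 5.04, 6.59 and 9.45 TPM in control XY, 11.3 and 8.58 TPM in control XX, 11.8 and 13.7 TPM in E11.5 XY and 7.95 and 12.8 TPM in E11.5 XX. The summed level of all 43 genes was 1856, 1916 and 2666 TPM in Dfo XY, 2032, 2050 and 2559 TPM in control XY, 3213 and 3034 TPM in control XX, 2984 and 2959 TPM in E11.5 XY and 3388 and 3003 TPM in E11.5 XX. Every cultured XY library, with or without Dfo, thus had a lower sum than every library of the other groups, while Dfo XY and control XY overlapped. These sums are of TPM as deposited, and the cultured XY libraries also had the largest Rpph1 share, which lowers every other gene. By group means of the same TPM, 28 of the 43 genes were lowest in Dfo XY, 13 in control XY, 1 in E11.5 XY and 1 in E11.5 XX. The order of the groups over all genes is not given here, so these counts are not particular to the 43. The highest mean was in control XX for 15 genes, in E11.5 XX for 15, in E11.5 XY for 12 and in Dfo XY for 1, which was E2f1.

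**Figure D1:**
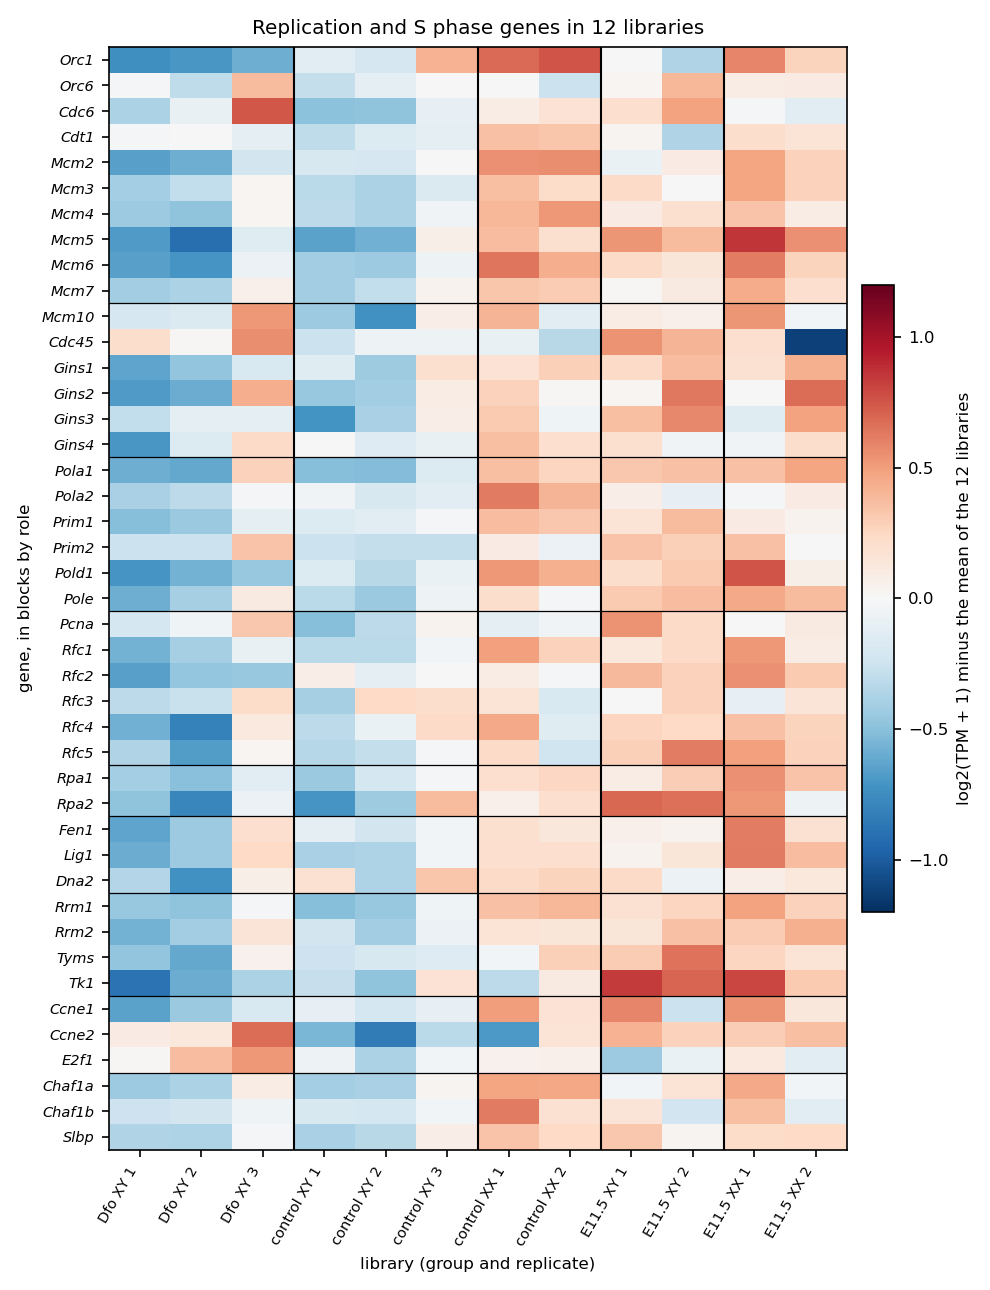
Levels of the 43 genes (rows, in blocks by role) in the 12 libraries (columns, by group), as log2(TPM + 1) minus the gene's mean over the 12 libraries, with red above and blue below the mean. Most rows are blue in replicates 1 and 2 of Dfo XY and control XY, paler in replicate 3 of both groups and red in control XX and E11.5 libraries; Ccne2 and E2f1 are red in Dfo XY.

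The first comparison asks what iron chelation did to the replication genes of cultured XY cells. Dfo moved few of them past the test: 1 of 43 rose (Ccne2, a cyclin E), 2 fell (Orc1, a subunit of the origin recognition complex, and Rfc2, a subunit of the clamp loader) and 40 did not pass. Over all genes tested, 15.5% were called (4.98% higher and 10.5% lower; limma on log2(TPM + 1), Benjamini-Hochberg adjusted p below 0.05). The estimate was above 0 for 15 members and below 0 for 28, and 6 had an unadjusted p below 0.05. Shares over all genes for these counts are not given here. The median log2 change of the members was -0.05, against -0.17 over all genes. Libraries of the groups did not overlap for 9 members, 5 of them higher in Dfo XY (Cdt1, Cdc45, Prim2, Ccne2 and E2f1; 11.6% of all genes) and 4 lower (Orc1, Mcm2, Pold1 and Rfc2; 26.5% of all genes). Beside this, 4 of the 8 NR5A1(+) cell markers fell with Dfo, while none of 10 erythroid, 8 macrophage, 7 endothelial or 8 germ cell markers was called. Of 6 mesonephric markers 1 fell, and of 6 neural crest and neuron markers 1 rose and 1 fell, with a median of -0.81. The neural crest and neuron markers summed to 43.5 to 64.2 TPM in Dfo XY, against 49.9 to 112 TPM in control XY. Macrophage markers summed to 81.4 to 122 TPM in Dfo XY, against 54.4 to 101 TPM in control XY. The part of these cells in the result was not tested.

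The count depended on how the libraries were used. With the replicate number as a block, 7 members were called: Ccne2 (0.87 ± 0.12, SE), Mcm10 (0.41 ± 0.10) and Pcna (0.29 ± 0.05) rose, and Orc1 (-0.70 ± 0.13), Mcm2 (-0.35 ± 0.07), Pold1 (-0.38 ± 0.09) and Rfc2 (-0.51 ± 0.09) fell (limma, adjusted p = 0.0110 to 0.0414), against a background of 23.8% (7.26% higher and 16.6% lower). Without both Dfo XY libraries that held Xist, which leaves 1 Dfo XY library assumed to vary like the other groups, 1 member was called, Cdc6, and the background was 5.32%. Without Dfo XY replicate 3, 5 members fell (Mcm2, Orc1, Prim1, Rfc2 and Rfc4) and none rose, with a background of 13.7%. With replicates 1 and 2 of each XY culture group averaged to 1 library, none was called and the background was 5.16%. Under scalings that leave the Rpph1 share out of account, the count was 4 or 5, with E2f1 higher as well. The split was 2 higher and 2 lower by median-of-ratios, 2 higher and 3 lower by quantiles, and 2 higher and 2 lower once the 50 most abundant genes were dropped. Over all genes the split of calls under these scalings was 9.42% higher and 6.35% lower, 8.0% higher and 7.39% lower, and 7.47% higher and 7.69% lower. The sign of the members' median turned with the scaling, at 0.10, -0.01 and 0.04, against -0.05, -0.03 and -0.10 over all genes.

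**Figure D2:**
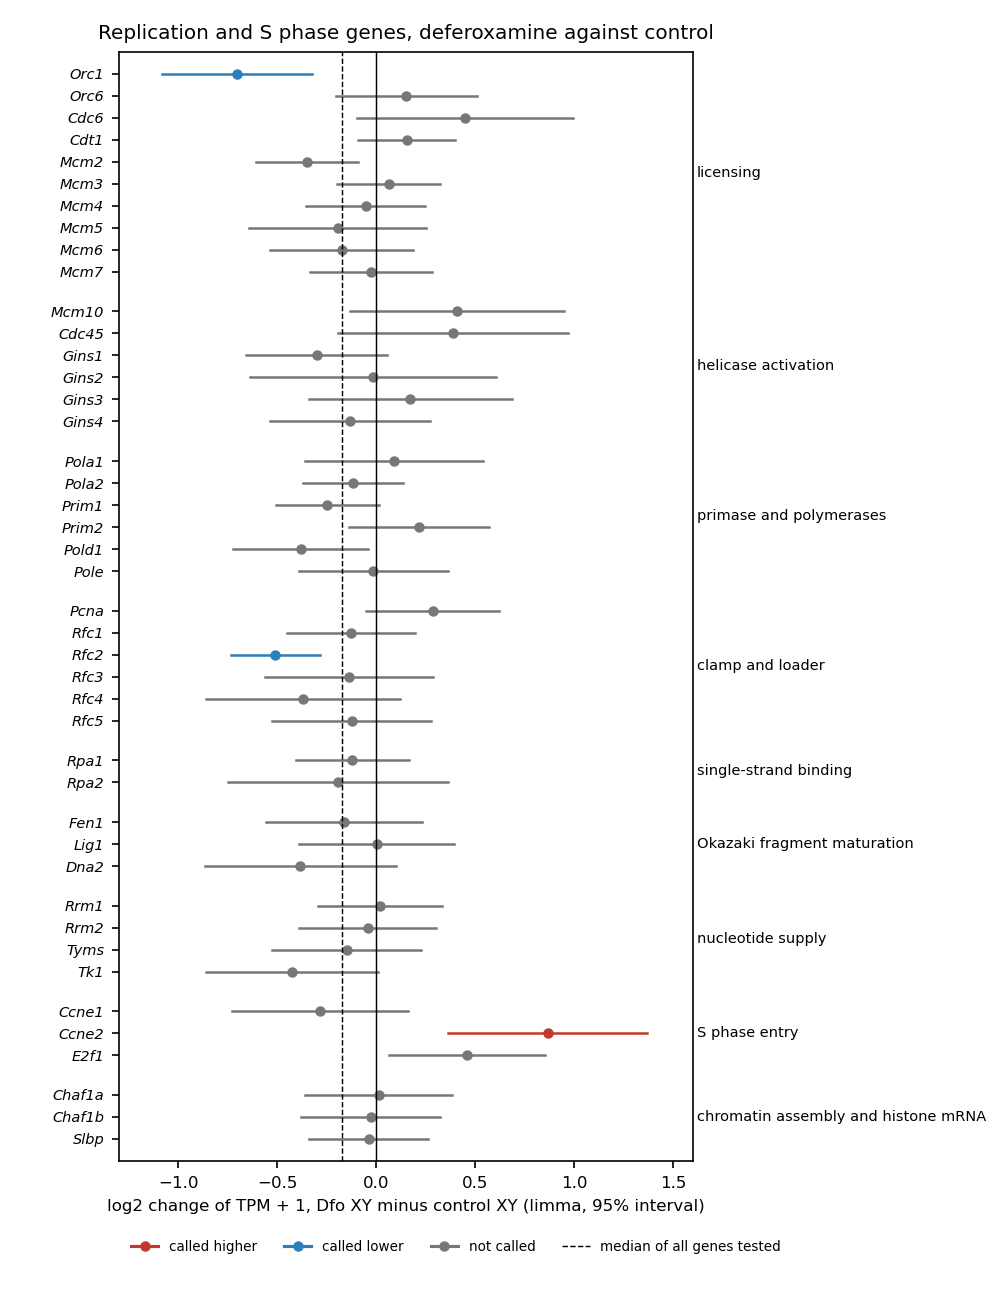
Log2 change of TPM + 1 in Dfo XY minus control XY for the 43 genes by role, with the limma estimate (point) and its 95% interval (line), coloured by the call; the dashed line is the median of all genes tested, -0.17. Only Ccne2 (0.87), Orc1 (-0.70) and Rfc2 (-0.51) are coloured, and most intervals cover 0.

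None of the 5 transcripts of iron-dependent enzymes passed the test. Rrm2 had 56.6, 63.0 and 93.8 TPM in Dfo XY, against 72.4, 63.0 and 80.3 TPM in control XY, and the groups overlapped. Its log2 difference was -0.04 (95% interval -0.39 to 0.30; limma, adjusted p = 0.888). Pole, the catalytic subunit of the leading-strand polymerase epsilon, had 17.2, 19.9 and 28.6 TPM in Dfo XY, against 20.9, 19.2 and 25.3 TPM in control XY. Its log2 difference was -0.01 (interval -0.39 to 0.36; adjusted p = 0.966), with the groups again mixed. The sign of both estimates turned under several settings, with Rrm2 at 0.11 and Pole at 0.13 by median-of-ratios scaling and both at 0.39 without the Dfo XY libraries that held Xist.

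Pold1, the catalytic subunit of the lagging-strand polymerase delta, was lower in each Dfo XY library than in any control XY library, with 21.9, 24.2 and 26.3 TPM in Dfo XY, against 32.2, 28.7 and 34.4 TPM in control XY. The log2 difference of -0.38 (interval -0.72 to -0.04) had an adjusted p of 0.127, and of 0.0388 with the replicate block (limma). Prim2, the primase subunit that carries the cluster, had 25.4, 25.4 and 39.0 TPM in Dfo XY, against 25.4, 24.97 and 24.9 TPM in control XY. Replicates 1 and 2 of Dfo XY lay beside the controls and replicate 3 alone was clearly above them, so the difference of 0.22 (interval -0.14 to 0.57; adjusted p = 0.412) rests on that library. Dna2, which trims flaps of Okazaki fragments, had 11.8, 8.88 and 16.1 TPM in Dfo XY, against 17.6, 11.6 and 19.6 TPM in control XY, a difference of -0.38 (interval -0.86 to 0.10; adjusted p = 0.278) with overlapping groups. The widest of these intervals, that of Dna2, reached -0.86 on the log2 scale, and a missed threshold does not show that the transcripts were alike.

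**Figure D3:**
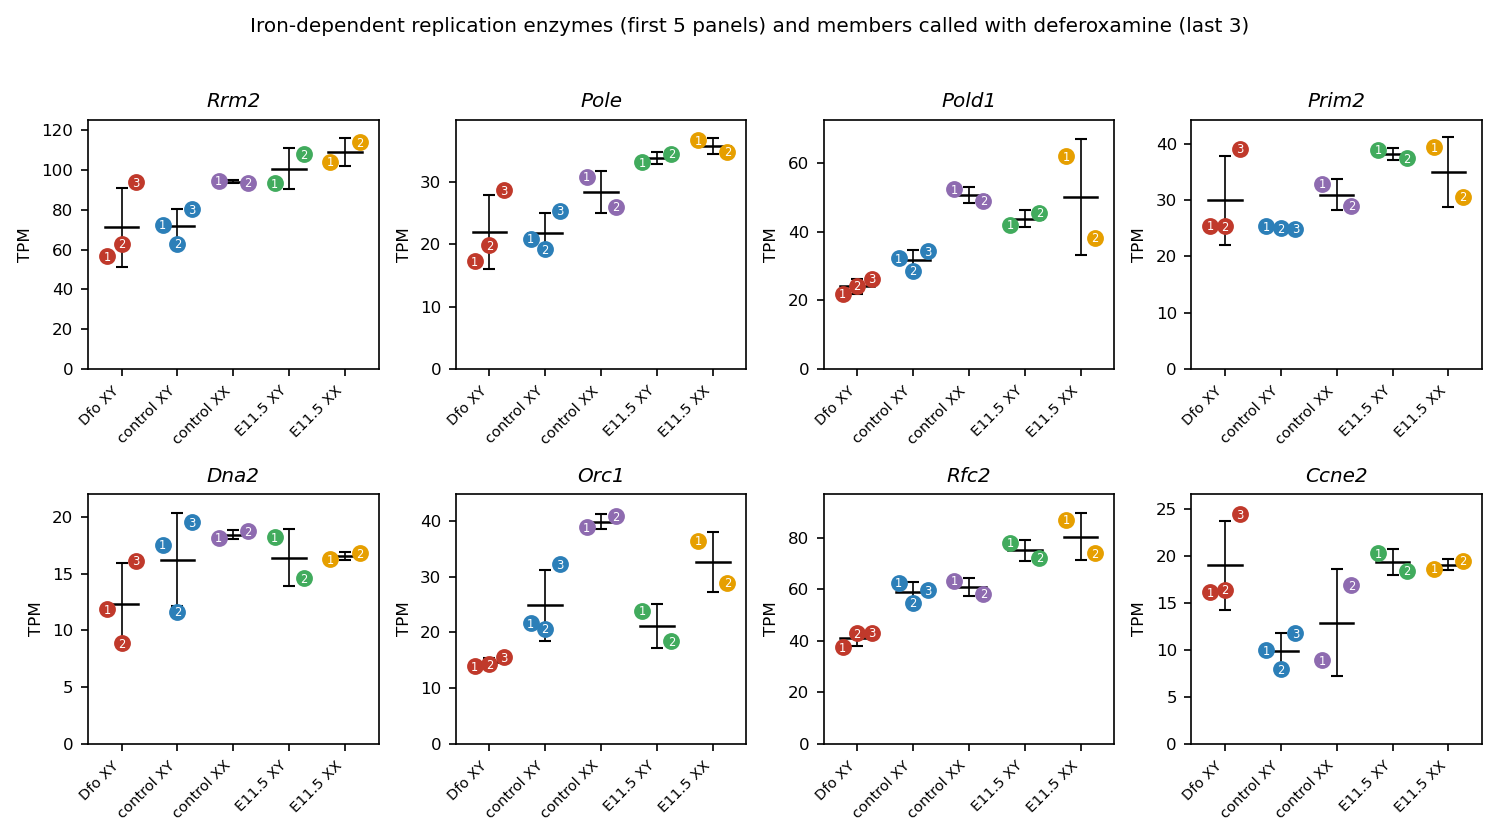
TPM of the 5 iron-dependent replication enzymes and the 3 members called in Dfo XY against control XY, in each library (points, with the replicate number inside), with the mean (bar) and SD (whiskers) of each group. Rrm2, Pole, Prim2 and Dna2 overlap or touch between Dfo XY and control XY, while Orc1 and Rfc2 lie lower and Ccne2 higher in Dfo XY, and replicate 3 is the highest Dfo XY point in each panel.

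Orc1, the largest subunit of the origin recognition complex, had 13.9, 14.3 and 15.5 TPM in Dfo XY, against 21.6, 20.6 and 32.2 TPM in control XY. The Dfo XY libraries were close to each other and all below the controls, and the level fell by 0.70 ± 0.17 on the log2 scale, 1.63-fold (SE; limma, adjusted p = 0.0170). Rfc2, one of the small subunits that load PCNA, had 37.5, 42.9 and 43.2 TPM in Dfo XY, against 62.7, 54.8 and 59.6 TPM in control XY, and fell by 0.51 ± 0.10, 1.42-fold (adjusted p = 0.00621). Ccne2, the cyclin E that with CDK2 drives entry into S phase, had 16.1, 16.4 and 24.5 TPM in Dfo XY, against 9.97, 7.96 and 11.8 TPM in control XY, and rose by 0.87 ± 0.23, 1.82-fold (adjusted p = 0.0247). In the E11.5 libraries Ccne2 was at 20.3 and 18.4 TPM (XY) and 18.7 and 19.5 TPM (XX).

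The Rfc2 call held when any library was left out, with a highest adjusted p of 0.0347 over those fits (limma). Leaving out replicate 3 of control XY ended the Orc1 call (adjusted p = 0.0577), as did leaving out replicate 1 (0.0590) or 2 (0.0563) of Dfo XY. Leaving out replicate 1 (0.0666) or 2 (0.0996) of control XY ended the Ccne2 call, as did leaving out replicate 3 of Dfo XY (0.0853). Without both Dfo XY libraries that held Xist the changes were 1.24 for Ccne2, -0.62 for Orc1 and -0.44 for Rfc2, and none was called (adjusted p = 0.0582, 0.239 and 0.131; limma).

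The other licensing genes did not pass. Mcm2, of the helicase ring, was nearest, with 79.8, 83.9 and 108 TPM in Dfo XY, against 110, 109 and 126 TPM in control XY, without overlap (-0.35 ± 0.12, SE; limma, adjusted p = 0.0652). The log2 differences of the other ring subunits lay between -0.19 (Mcm5) and 0.06 (Mcm3), and all of them overlapped between the groups. Cdc6, a loader of the ring, had 8.15, 10.1 and 18.9 TPM in Dfo XY, against 7.47, 7.51 and 10.1 TPM in control XY, with only replicate 3 far above the controls (0.45 ± 0.25; adjusted p = 0.263). Cdt1, the other loader, had 47.4, 48.3 and 44.6 TPM in Dfo XY, against 38.8, 42.8 and 44.3 TPM in control XY, a small shift without overlap (0.15 ± 0.11; adjusted p = 0.398). Orc6, a small subunit of the origin complex, overlapped (0.15 ± 0.16; adjusted p = 0.586).

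None of the 6 genes of helicase activation passed, and their log2 differences ranged from -0.30 for Gins1 to 0.41 for Mcm10. Cdc45, a core part of the active helicase, had 21.1, 18.4 and 27.3 TPM in Dfo XY, against 15.1, 17.4 and 17.3 TPM in control XY, just apart (0.39 ± 0.27, SE; limma, adjusted p = 0.373). Mcm10, which helps the helicase to open, had 20.9, 21.4 and 35.1 TPM in Dfo XY, against 17.7, 14.2 and 25.7 TPM in control XY, so that each Dfo XY library was above the control of the same number while the groups overlapped (0.41 ± 0.25; adjusted p = 0.307). The polymerase alpha subunits Pola1 and Pola2 and the catalytic primase Prim1 had log2 differences of 0.09, -0.12 and -0.25, with adjusted p between 0.192 and 0.815. Pcna, the sliding clamp, had 164, 183 and 238 TPM in Dfo XY, against 133, 152 and 195 TPM in control XY. Each Dfo XY library was again above the control of the same number, with an overlap between groups (0.29 ± 0.15, limma, adjusted p = 0.244). The labels do not say what a number marks, and the share of all genes with the order of Mcm10 and Pcna is not given here. Apart from Rfc2, the clamp loader subunits Rfc1, Rfc3, Rfc4 and Rfc5 lay between -0.37 and -0.12 and did not pass.

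The single-strand binding proteins Rpa1 and Rpa2 (-0.12 and -0.19), the flap nuclease Fen1 (-0.16) and the DNA ligase Lig1 (0.00) did not pass and overlapped between groups. In nucleotide supply, Rrm1, the large subunit of ribonucleotide reductase, had a log2 difference of 0.02 ± 0.14 and the thymidylate synthase Tyms one of -0.15 ± 0.17 (SE), and neither passed. Tk1, the thymidine kinase of cycling cells, had 15.5, 19.2 and 22.4 TPM in Dfo XY, against 24.1, 20.8 and 33.4 TPM in control XY, mostly lower but with overlap (-0.42 ± 0.20; limma, adjusted p = 0.180). E2f1, an activator of replication genes, had 13.4, 17.5 and 19.5 TPM in Dfo XY, against 12.7, 10.0 and 13.0 TPM in control XY, all above the controls (0.46 ± 0.18; adjusted p = 0.114). Ccne1, the other cyclin E, overlapped (-0.28 ± 0.20; adjusted p = 0.392). The chromatin assembly subunits Chaf1a and Chaf1b and the histone mRNA binder Slbp had log2 differences between -0.04 and 0.01 and did not pass.

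Since TPM ratios within a library do not depend on its total, a few pairs of partners were compared directly. The pairs were chosen after their values were seen, so they are a description. Mcm2 over Mcm3, both subunits of the same ring, was 0.829, 0.804 and 0.834 in Dfo XY, against 1.08, 1.11 and 1.10 in control XY, tight within each group and apart between them. Ccne2 over Ccne1 was 0.887, 0.779 and 0.962 in Dfo XY, against 0.370, 0.320 and 0.436 in control XY, so the makeup of cyclin E transcripts differed. Orc1 over Orc6 was 0.301, 0.376 and 0.253 in Dfo XY, against 0.563, 0.477 and 0.685 in control XY, also apart. Pold1 over Pole was 1.27, 1.22 and 0.919 in Dfo XY, against 1.54, 1.497 and 1.36 in control XY, and Prim2 over Prim1 was 0.840, 0.797 and 0.967 in Dfo XY, against 0.654, 0.628 and 0.582 in control XY. Rrm2 over Rrm1, the subunits of ribonucleotide reductase, overlapped, with 0.803, 0.906 and 0.973 in Dfo XY, against 1.06, 0.891 and 0.853 in control XY. As a share of the summed level of the 43 genes, 7 genes were higher in every Dfo XY library than in any control XY library (Cdc6, Mcm10, Cdc45, Prim2, Pcna, Ccne2 and E2f1; 9.96% of all genes by the same measure). Another 7 were lower (Orc1, Mcm2, Mcm6, Prim1, Pold1, Rfc2 and Tk1; 19.3% of all genes). In a fit scaled to that sum, Ccne2 (0.93 ± 0.22, SE) and Orc1 (-0.65 ± 0.16) were called (limma, adjusted p = 0.0193 and 0.0261; background 8.70%).

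The genes around replication were read from lists of the same pathways. Over all genes 4.98% were called higher and 10.5% lower with Dfo, the shares to set beside the counts of each list. Of 35 other fork and origin genes, none rose and 2 fell with Dfo. Rnaseh2c, a subunit of the RNase that removes RNA from DNA, had 44.7, 60.1 and 54.1 TPM in Dfo XY, against 100.3, 80.2 and 99.5 TPM in control XY (-0.81 ± 0.13, SE; limma, adjusted p = 0.00152). Asf1a, a histone chaperone, fell by 0.43 ± 0.13 (adjusted p = 0.0368), a call that ended under each other scaling and without any 1 of the XY culture libraries other than Dfo XY replicate 3. Of 19 other nucleotide supply genes none rose and 3 fell: Nme1, a nucleoside diphosphate kinase (-0.82 ± 0.16), Cad, which starts pyrimidine synthesis (-0.68 ± 0.13), and Shmt1, a folate enzyme (-0.61 ± 0.16), with adjusted p of 0.00479, 0.00348 and 0.0234. Rrm2b, the small reductase subunit that p53 induces, was low, with 4.63, 3.77 and 5.27 TPM in Dfo XY, against 5.6, 3.87 and 3.64 TPM in control XY (0.06 ± 0.25; adjusted p = 0.904). With the replicate block the counts were 6 lower of 35 and 8 lower of 19, against 16.6% of all genes lower. Of 12 replication checkpoint genes 1 fell, H2afx, the histone marked at DNA breaks (-0.83 ± 0.11; adjusted p = 0.000467), and 2 with the block. Of 15 genes of cytosolic iron-sulfur assembly and other iron-sulfur DNA enzymes, 2 fell: Ciapin1 (-0.76 ± 0.19) and Nubp1 (-0.46 ± 0.13), both of the assembly pathway (adjusted p = 0.0180 and 0.0268). Without Dfo XY replicate 3, 5 of the 35 fork and origin genes fell (13.7% of all genes called in either direction). None of the 15 iron-sulfur genes fell without control XY replicate 2 (9.55%) or Dfo XY replicate 2 (9.20%). No counts of these lists are given without both Dfo XY libraries that held Xist, since 1 Dfo XY library is then left.

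Of 28 regulators of the step from G1 into S phase, 3 rose and 8 fell with Dfo, against 4.98% higher and 10.5% lower over all genes. Ccnd1, cyclin D1, had 23.7, 20.9 and 15.0 TPM in Dfo XY, against 55.7, 51.8 and 57.1 TPM in control XY, and fell by 1.44 ± 0.15, 2.72-fold (SE; limma, adjusted p = 4.28e-05). Its partner kinase Cdk4 had 362, 353 and 324 TPM in Dfo XY, against 498, 509 and 516 TPM in control XY (-0.55 ± 0.08; adjusted p = 0.000876). Cdkn1a, the CDK inhibitor p21, had 54.3, 47.3 and 87.9 TPM in Dfo XY, against 23.6, 17.9 and 22.2 TPM in control XY, and rose by 1.49 ± 0.21, 2.81-fold (adjusted p = 0.000607). The changes of Ccnd1 and Cdkn1a were past the threshold in all 26 alternatives, while that of Cdk4 missed it in 1 of them (adjusted p = 0.0871). Rb1, which holds E2F factors (0.86 ± 0.19), and Tfdp2, a partner of E2F (0.52 ± 0.12), also rose (adjusted p = 0.00935 and 0.0146), while the inhibitor Cdkn1c fell (-0.61 ± 0.10; adjusted p = 0.00149). By median-of-ratios scaling the split was 6 higher and 5 lower, with 15.8% of all genes called in either direction. The fit without both Dfo XY libraries that held Xist leaves 1 Dfo XY library, so no count is given for it. Without control XY replicate 1 the split was 2 higher and 5 lower (9.48% of all genes called). Leaving out control XY replicate 3 (11.4%) or Dfo XY replicate 1 (9.89%) left 5 lower.

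Of 24 mitosis genes, none rose and 14 fell with Dfo, with a median of -0.55, against 4.98% higher and 10.5% lower over all genes. Ube2c, which tags mitotic proteins for breakdown, had 66.6, 60.7 and 64.8 TPM in Dfo XY, against 142, 135 and 138 TPM in control XY (-1.10 ± 0.09, SE; limma, adjusted p = 9.97e-06). Ccnb2, cyclin B2, had 21.3, 18.3 and 14.2 TPM in Dfo XY, against 55.6, 56.9 and 52.8 TPM in control XY (-1.59 ± 0.20; adjusted p = 0.000248). Cenpf, a kinetochore protein, fell by 1.03 ± 0.15 (adjusted p = 0.000688), and Mki67, the marker of cycling cells, had 101, 102 and 134 TPM in Dfo XY, against 136, 125 and 137 TPM in control XY (-0.24 ± 0.11; adjusted p = 0.159). The count depended on the libraries: 8 fell when replicate 3 of control XY, or replicate 1 or 2 of Dfo XY, was left out, and 19 when replicate 3 of Dfo XY was. Of all genes, 11.4%, 9.89%, 9.20% and 13.7% were called in these fits, in that order, and 5.16% with replicates 1 and 2 averaged. With replicates 1 and 2 averaged 6 fell. No count is given without both Dfo XY libraries that held Xist, since 1 Dfo XY library is then left. The summed level of the 24 mitosis genes over that of the 43 replication genes was 0.434, 0.413 and 0.399 in Dfo XY, against 0.604, 0.587 and 0.557 in control XY. Every Dfo XY library, the replicate without Xist included, was thus below every control. The same ratio was 0.499 and 0.536 in control XX, 0.693 and 0.708 in E11.5 XY and 0.608 and 0.669 in E11.5 XX.

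**Figure D4:**
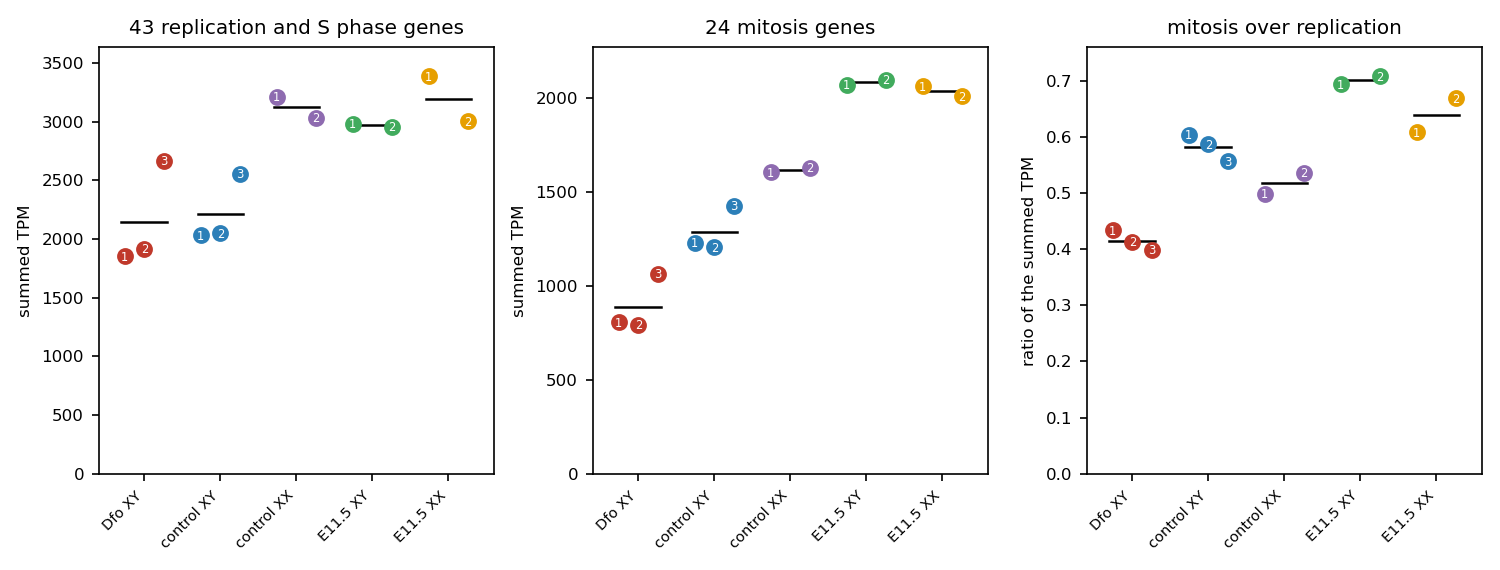
Summed TPM of the 43 replication and S phase genes, summed TPM of 24 mitosis genes, and the ratio of these sums, in each library (points, with the replicate number inside) with the group mean (bar). The replication sums of Dfo XY and control XY overlap (1856 to 2666 TPM and 2032 to 2559 TPM), whereas the ratio in Dfo XY, 0.399 to 0.434, is below that of every other group.

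In culture without Dfo, XY cells were compared with XX cells. Of the 43 genes 17 were lower in control XY and none was higher, against 25.2% of all genes called (22.2% lower and 2.97% higher). The median was -0.46, against -0.22 over all genes, and every control XY library was below both control XX libraries for 28 members (41.4% of all genes). All 3 chromatin assembly and histone mRNA genes were among the 17, with 7 of 10 licensing genes and 4 of 6 polymerase and primase genes. The clamp loader, single-strand binding and nucleotide supply genes gave 1 each. No gene of helicase activation, Okazaki fragment maturation or S phase entry passed. Mcm6 had 157, 155 and 201 TPM in control XY, against 328 and 283 TPM in control XX, 1.79-fold lower without overlap (-0.84 ± 0.19, SE; limma, adjusted p = 0.00717). Chaf1a, the large subunit of chromatin assembly factor 1, had 45.2, 45.7 and 61.8 TPM in control XY, against 84.1 and 83.5 TPM in control XX (-0.72 ± 0.19; adjusted p = 0.0170). Rrm1 had 68.2, 70.7 and 94.1 TPM in control XY, against 125 and 128 TPM in control XX (-0.71 ± 0.16; adjusted p = 0.00832). Pola1, the catalytic subunit of polymerase alpha (-0.71 ± 0.23), and Mcm4 (-0.70 ± 0.16) followed, with adjusted p of 0.0403 and 0.00731.

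These calls depended on the scaling. The Rpph1 share was 15.3% to 20.3% in control XY and 6.96% to 7.20% in control XX. By median-of-ratios or quantile scaling none of the 43 genes was called, with a background of 6.37% and 3.81%. Once the 50 most abundant genes were dropped, 1 was called (Mcm2, lower; background 7.99%). The median of the members was then -0.13, -0.06 and -0.19, against 0.07, -0.03 and 0.02 over all genes. In control XY the 8 markers of NR5A1(+) cells summed to 786 to 977 TPM, against 1471 to 1527 TPM in control XX, and 5 of them were called lower. Of the other markers, 4 of 10 erythroid, 3 of 8 macrophage, 4 of 6 neural crest and neuron, 2 of 6 mesonephric and 1 of 7 endothelial genes were called higher, and none of 8 germ cell genes. Neural crest and neuron markers summed to 49.9 to 112 TPM in control XY, against 25.3 to 35.6 TPM in control XX. Their part in the result was not tested. Dropping control XY replicate 1 left 8 calls (14.3% of all genes in that fit), dropping control XY replicate 2 left 7 (14.3%), dropping control XX replicate 1 left 3 (11.9%) and dropping control XX replicate 2 left 7 (14.1%). Averaging replicates 1 and 2 of the XY cultures left 6 (10.9%).

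**Figure D5:**
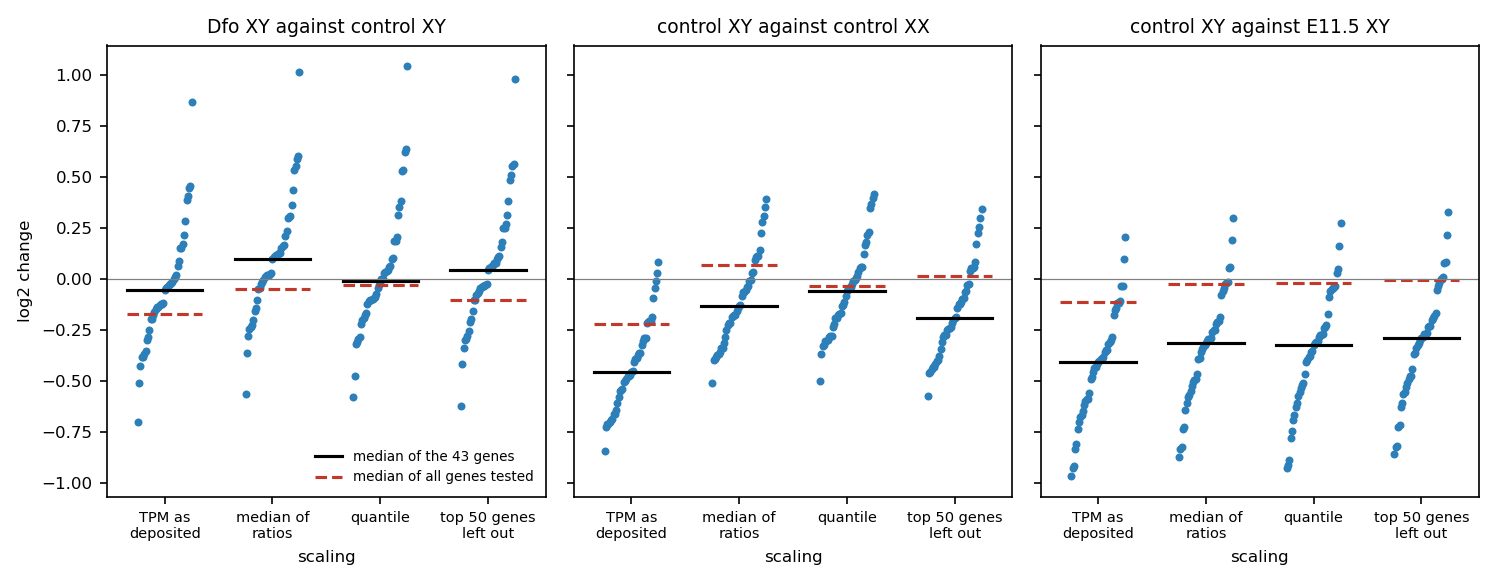
Log2 changes of the 43 genes (points, in rising order) in 3 comparisons under TPM as deposited and 3 other scalings, with the median of the 43 genes (black) and of all genes tested (red, dashed). For control XY against control XX the median moves to between -0.19 and -0.06 under the other scalings (-0.46 as deposited), and for control XY against E11.5 XY it stays between -0.41 and -0.29.

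At E11.5, none of the 43 genes passed between XY and XX cells, against 2.29% of all genes (limma). An unadjusted p below 0.05 was found for 4 of them, a count given without its share over all genes. The median was -0.07, against 0.00 over all genes. Orc1 had 23.9 and 18.4 TPM in E11.5 XY, against 36.4 and 28.9 TPM in E11.5 XX, without overlap (-0.61 ± 0.21, SE; limma, adjusted p = 0.142), and Mcm2 had 119 and 135 TPM in E11.5 XY, against 176 and 153 TPM in E11.5 XX (-0.37 ± 0.15; adjusted p = 0.181). Cdc45 was higher in both E11.5 XY libraries but did not pass (26.8 and 24.4 TPM in E11.5 XY, against 21.0 and 7.80 TPM in E11.5 XX; 0.94 ± 0.33; adjusted p = 0.141), and the second E11.5 XX library held the lowest value of that gene in the series. Without E11.5 XX replicate 1 only that low library is left, assumed to vary like the other groups, and Cdc45 was then called. A test asked whether the difference between XY and XX cells itself differed between culture and E11.5. It called none of the 43, against 1.33% of all genes (limma). On TPM as deposited, 4 of the 43 had an unadjusted p below 0.05 and the estimate was below 0 for 40. The shares of all genes for these counts are not given here. Each other scaling brought the members' median nearer to no difference. With only replicates 1 and 2 of the XY cultures, a setting added after seeing the data, 9 were called, all lower (Cdc6, Mcm4, Mcm6, Pcna, Pola1, Prim1, Rpa2, Rrm1 and Slbp), against 9.63% of all genes.

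Cultured XY cells were set against E11.5 XY cells to see how the genes stood after culture. Of the 43 genes, 41 had an estimate below 0 and 24 had an unadjusted p below 0.05. Neither count is set beside its share over all genes here. Only 2 passed the adjusted test, both lower in control XY, against 5.66% of all genes (3.04% lower and 2.62% higher). Tk1 had 24.1, 20.8 and 33.4 TPM in control XY, against 53.4 and 48.5 TPM in E11.5 XY (-0.97 ± 0.22, SE; limma, adjusted p = 0.0284), and Pcna had 133, 152 and 195 TPM in control XY, against 276 and 223 TPM in E11.5 XY (-0.65 ± 0.17; adjusted p = 0.0481). The Pcna call ended in 20 of 26 alternatives, all 3 scalings among them, and the Tk1 call in 9. Both genes were lower in every control XY library than in any E11.5 XY library, as were 28 members in all (26.2% of all genes). The median was -0.41, against -0.11 over all genes, and it stayed between -0.32 and -0.29 under the other scalings. The count depended on the libraries. Leaving out control XY replicate 3 gave 9 (9.09% of all genes in that fit), leaving out Dfo XY replicate 3 gave 12 (7.35%), and using only replicates 1 and 2 of both XY culture groups gave 23 (13.7%). Leaving out either of the other control XY libraries, or either E11.5 XY library, gave 0 (1.73% to 3.23%). Leaving out Dfo XY replicate 1 or 2, or either E11.5 XX library, gave 1 (up to 5.16%), and leaving out both Dfo XY libraries that held Xist gave 6 (3.99%). Of the 24 mitosis genes, 15 were lower in control XY. Erythroid genes summed to 328 to 2546 TPM in control XY, against 2607 to 3384 TPM in E11.5 XY, with none of 10 called. In the same comparison 2 of 7 endothelial markers were lower, and 2 of 8 macrophage, 2 of 6 neural crest and neuron and 1 of 8 germ cell markers were higher. Endothelial markers summed to 67.7 to 144 TPM in control XY, against 211 to 216 TPM in E11.5 XY, and macrophage markers to 54.4 to 101 TPM in control XY, against 16.3 to 33.1 TPM in E11.5 XY. The part of these cells was not tested.

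In XX cells, none of the 43 genes passed between culture and E11.5, against 9.07% of all genes (limma). An unadjusted p below 0.05 was found for 3 of them, a count given without its share over all genes. The median was -0.04, against 0.12 over all genes. Pola2, the second subunit of polymerase alpha, was nearest above 0, with 80.2 and 69.3 TPM in control XX, against 51.2 and 55.7 TPM in E11.5 XX (0.47 ± 0.14, SE; adjusted p = 0.0591). Tk1 had 23.4 and 31.9 TPM in control XX, against 52.0 and 36.8 TPM in E11.5 XX (-0.66 ± 0.24; adjusted p = 0.115). In this comparison 4 of 10 erythroid, 5 of 7 endothelial and 1 of 8 germ cell markers were lower, and 1 of 8 macrophage and 1 of 8 NR5A1(+) cell markers were higher; their part was not tested. Median-of-ratios scaling called Rfc2 and Tk1 lower in control XX, with 5.26% of all genes called. Rfc2 alone was called by quantiles (4.36%) or once the 50 most abundant genes were dropped (6.47%). The median of all genes under these scalings was 0.00, 0.03 and 0.03, in that order. By median-of-ratios and by quantiles the median of the members was more negative than the -0.04 as deposited.

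Dfo XY was also set against control XX, a comparison that shares the Dfo libraries with the first and the control XX libraries with the second. Of the 43 genes 21 were lower in Dfo XY and none was higher, against 38.6% of all genes (33.8% lower and 4.79% higher), with a median of -0.54, against -0.33 over all genes. In the same comparison 7 of 8 NR5A1(+) cell markers were lower, and 6 of 10 erythroid, 5 of 8 macrophage, 1 of 7 endothelial, 1 of 6 mesonephric and 1 of 6 neural crest and neuron markers were higher; their part was not tested. Orc1 had the widest gap, with 13.9, 14.3 and 15.5 TPM in Dfo XY, against 38.9 and 40.8 TPM in control XX (-1.39 ± 0.19, SE; limma, adjusted p = 0.000185). Pold1 (-1.04 ± 0.18), Mcm2 (-1.04 ± 0.13), Mcm6 (-1.02 ± 0.19) and Mcm5 (-0.86 ± 0.23) followed. Under other scalings the calls went both ways. By median-of-ratios and by quantiles, Ccne2, Cdc45, E2f1, Orc6 and Pcna were higher and Mcm2, Mcm6, Orc1 and Pold1 lower in Dfo XY, with a background of 19.7% and 18.3%. Once the 50 most abundant genes were dropped 2 were higher and 5 lower (21.6%). The median of all genes was then 0.07, -0.03 and -0.01, and that of the members -0.06, -0.08 and -0.18. With 1 library left out the members' median lay between -0.70 and -0.47. It was less negative without both Dfo XY libraries that held Xist, which leaves 1 Dfo XY library.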

How the data were processed

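Total RNA of NR5A1(+) cells was made into stranded SMART-Seq libraries, per the labels' protocols. The authors deposited 1 table of TPM per library; the submitters' processing notes name STAR 2.7.10b, RSEM and R 4.1.2 and the mm10 build. TPM keep no read numbers, so the depth of each library is unknown and no counting interval was given. Groups and replicate numbers came from the sample labels. From the deposited TPM, limma 3.58.1 in R 4.3.3 fitted log2(TPM + 1) of the 16133 symbols with a TPM of at least 1 in at least 2 of 12 libraries, with 1 coefficient for each of 5 groups and a trended variance prior; 7 contrasts were tested, and p-values were Benjamini-Hochberg adjusted over all symbols within each. Calls were made at an adjusted p under 0.05. Fold changes are of TPM + 1, which understates changes of low genes. The test was also run on simulated data with independent noise in each gene and library. That run could not cover shifts shared by many genes of a library, such as those of replicate 3.

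By a rule on correlated deviations, the replicate numbers of Dfo XY and control XY could be taken as pairs (r = 0.214, 0.119 and 0.335 over 16133 genes). Replicates 1 and 2 correlated across numbers as well (0.144 and 0.177), and nothing in the labels says what a number marks. The main calls therefore leave the pairing out, and the fit with the replicate block is an alternative to them. The members and all gene lists were chosen with earlier results of these data known. Every member could be named; full values were given for the iron-dependent enzymes, members called with Dfo, up to 5 called members per direction of the other contrasts and the highest and lowest member, and from each other list up to 3 called genes per direction by adjusted p, with Rrm2b, Cdkn1a, Ccnd1 and Mki67. Members with values beyond that rule and the ratios were picked after their values were seen. Alternatives changed the pseudocount, filter, scaling, variance prior and libraries used. Promoters came from RefSeq on GRCm38.p6.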

Additional observations from a re-analysis of the deposited data

How the results depend on the processing

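Pseudocounts of 0.1 and 5, no filter, a filter of 5 TPM, 3 scalings, limma without the trend, each library left out, both Dfo XY libraries with Xist left out, replicates 1 and 2 averaged, fits of only the groups compared and the replicate block were tried. Only replicates 1 and 2 of the XY cultures, and scaling to the members' sum, were added after seeing the data. The cause of the changes was not tested, except that fits with fewer libraries have fewer degrees of freedom. Percentages beside the counts are of all genes called in the same fit. No counts are given here for fits that leave 1 library in a group. For Dfo XY against control XY the count of members called (3, 15.5%) was 5 by quantiles (15.4%), 0 averaged (5.16%) and 7 with the replicate block (23.8%). With 1 library of these groups left out it was 2 to 5 (9.20% to 13.7%). The median (-0.05) was 0.24 without the libraries with Xist and -0.25 to 0.04 with 1 library left out. Rrm2 turned to 0.11 by median-of-ratios, 0.0016 by quantiles, 0.052 without the 50 most abundant genes, 0.39 without the libraries with Xist, 0.022 averaged and 0.012 scaled to the members, and ranged from -0.26 to 0.10 with 1 library left out. Pole under the same settings turned to 0.13, 0.10, 0.079, 0.39, 0.032 and 0.039 and ranged from -0.22 to 0.13. Without the libraries with Xist, Dna2 and Mki67 turned to 0.020 and 0.020. Rrm2b turned to -0.13 with only replicates 1 and 2 and ranged from -0.038 to 0.22 with 1 library left out. For control XY against control XX the count (17, 25.2%) was 0 by median-of-ratios (6.37%), 0 by quantiles (3.81%) and 1 without the 50 most abundant genes (7.99%). It was 10 without the trend (20.1%), 6 averaged (10.9%), 0 with the replicate block (where 0 of all genes were called) and 0 scaled to the members (1.83%). With 1 library of the XY cultures left out it was 7 to 20 (14.3% to 26.9%). The median (-0.46) was -0.13, -0.056 and -0.19 under the 3 scalings and -0.58 to -0.40 with 1 library left out. For E11.5 XY against E11.5 XX the count (0, 2.29%) was 1 with only replicates 1 and 2 (6.35%). With 1 library of the XY cultures left out it was 0 (1.02% to 3.95%). The median ranged from -0.10 to -0.015 with 1 library left out. For control XY against E11.5 XY the count (2) was 1 with a pseudocount of 0.1, 1 without filter, 4 at 5 TPM, 4 by quantiles, 1 without the 50 most abundant genes, and 0 without the trend. It was 6 without the libraries with Xist, 0 averaged, 23 with only replicates 1 and 2, 0 with only the groups compared, 1 with the replicate block, 1 scaled to the members and 0 to 12 with 1 library left out. The median ranged from -0.51 to -0.36. For control XX against E11.5 XX the count (0, 9.07%) was 1 at 5 TPM (14.1%), 2 by median-of-ratios (5.26%) and 1 by quantiles (4.36%). It was 1 without the 50 most abundant genes (6.47%) and 1 with only replicates 1 and 2 (12.3%). With 1 library of the XY cultures left out it was 0 to 1 (6.82% to 10.4%). The median (-0.04) was -0.22 by median-of-ratios, -0.25 by quantiles and -0.13 to 0.068 with 1 library left out. For Dfo XY against control XX the count (21, 38.6%) was 9 by median-of-ratios (19.7%), 9 by quantiles (18.3%) and 7 without the 50 most abundant genes (21.6%). It was 0 with the replicate block and 8 scaled to the members (12.4%). With 1 library of the XY cultures left out it was 15 to 29 (30.7% to 38.6%). The median (-0.54) was -0.063, -0.080 and -0.18 under the 3 scalings and -0.24 without the libraries with Xist. It was -0.70 to -0.47 with 1 library left out. In this comparison too, 0 of all genes were called with the replicate block. For the difference between the sex effects of culture and E11.5 the count (0, 1.33%) was 9 with only replicates 1 and 2 (9.63%). With 1 library of the XY cultures left out it was 0 (0.112% to 4.39%). The median (-0.35) was -0.074, -0.10 and -0.13 under the 3 scalings and -0.47 to -0.25 with 1 library left out. The numbers of the groups of 2 did not pair (r = -0.016, -0.003 and 0.012 for their libraries), and no fit with the replicate block was made for the difference between sex differences.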
